A study of Mus musculus with 4 samples.

Results

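Transcripts of 34 genes of glucose transport and glycolysis were followed in mouse hearts that carry a serine-to-alanine replacement at the inhibitory phosphorylation site of the kinase GSK-3beta, beside wild-type hearts. The 34 were listed by gene symbol, and each gene was read from the brightest of the probe sets annotated to that symbol alone, by mean over the 4 arrays. Of the 34, 29 entered the test over all 18193 genes, through 60 probe sets in all, and Gapdh was carried by Affymetrix control probe sets outside that test. Gpi1, Pfkfb1, Eno1 and Mpc2 were not analysed here. The arrays came from 2 heart samples of GSK-3beta S9A knock-in mice aged 3.5 months and 2 of wildtype mice aged 3.6 months, all labelled strain C57B6, tissue heart and baseline. The labels say nothing of zygosity, sex, feeding state, time of day or how many animals stand behind a sample, and a p-value here reflects the scatter among 4 samples that could be technical. The alanine allele is labelled as a knock-in and the labels name heart tissue and no sorting of cells. Values are log2 expression after RMA, a difference is knock-in minus wild-type on that scale, and a gene was called at an adjusted p under 0.05 in limma over all genes.

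Glucose enters heart cells mainly through the transporters GLUT4 and GLUT1. It is trapped by hexokinase, committed to breakdown by phosphofructokinase and carried through aldolase, enolase and pyruvate kinase to pyruvate, which either becomes lactate or enters mitochondria. Phosphofructokinase is switched on by fructose 2,6-bisphosphate, which the PFKFB enzymes make and remove, and fructose bisphosphatase runs the opposing step. Insulin signalling through Akt phosphorylates GSK-3beta at its serine near the amino end and so inhibits it, and an alanine there cannot be phosphorylated.

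The largest differences belonged to some of the genes at the control point around phosphofructokinase. Fbp1, Pfkfb2 and Pfkfb3 were 1.98-fold, 1.61-fold and 1.30-fold higher in knock-in hearts, while every other enzyme of the group differed by less than 0.25 on the log2 scale. At the same step Pfkp and Pfkl differed by 0.24 and 0.13, and Fbp2, Pfkfb4 and Pfkm by -0.15, -0.09 and -0.0157. On their second brightest probe sets Pfkfb2 and Pfkfb3 differed by 0.15 and 0.10. Fbp1 and Pfkfb3 lay below the median level of all genes. None of the 29 members was called in limma, where 0.00550% of all genes were. Without adjustment, 5 of the 29 had a limma p under 0.05, against 7.39% of all genes. They were Fbp1, Pfkfb2, Pfkfb3, Slc2a4 and Mpc1, all higher (4.40% of all genes), and 0 members were lower (2.99% of all genes). This count changed with the fit, to 3 with a replicate block and 9 with a trend on intensity and a robust prior. The number over all genes changed too, from 800 higher and 544 lower in the fit reported. It was 664 and 479 with the replicate block, and 945 and 575 with the trend and robust prior. An exact permutation test of 2 arrays against 2 cannot go below p = 0.333.

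Most members stood slightly higher in knock-in hearts. Differences were above 0 in 21 of the 29 and below 0 in 8, with a median of 0.13, against a median of 0.00024 over all genes. Both knock-in arrays lay above both wild-type arrays in 16 members, against 19.6% of all genes, and below them in 1 member, Slc16a3, against 17.0% of all genes. Bright genes in general leaned the same way. Of the 22 members in the brighter part of all genes, split at the median level, 14 had both knock-in arrays on top, against 26.7% of genes there, and 0 had both below, against 17.2%. Among these 22 the difference was above 0 in 18, against 57.2%, and 3 had an unadjusted limma p under 0.05, against 9.73%. The 1820 brightest genes held 15 members. Of these, 10 had both knock-in arrays on top, against 35.4% of the 1820, and 0 had both below, against 16.6%. Their median difference was 0.14, against 0.04, and 2 had an unadjusted limma p under 0.05, against 9.51%. Cardiomyocyte markers leaned that way too: all 8 had a difference above 0 (median 0.05), from 0.0011 for Ryr2 to 0.16 for Mybpc3, and 5 of them had both knock-in arrays on top. Their summed linear level was 163818 to 168753 in knock-in hearts and 158005 to 161435 in wild-type hearts. Differences were above 0 in 5 of 5 macrophage, 3 of 6 fibroblast, 2 of 6 endothelial and 0 of 4 smooth muscle markers, with medians of 0.07, 0.03, -0.09 and -0.24. The part of these markers and of the lean in the members' values was not tested, and in whole hearts fewer cells of a type and less RNA per cell cannot be told apart.

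**Figure D1:**
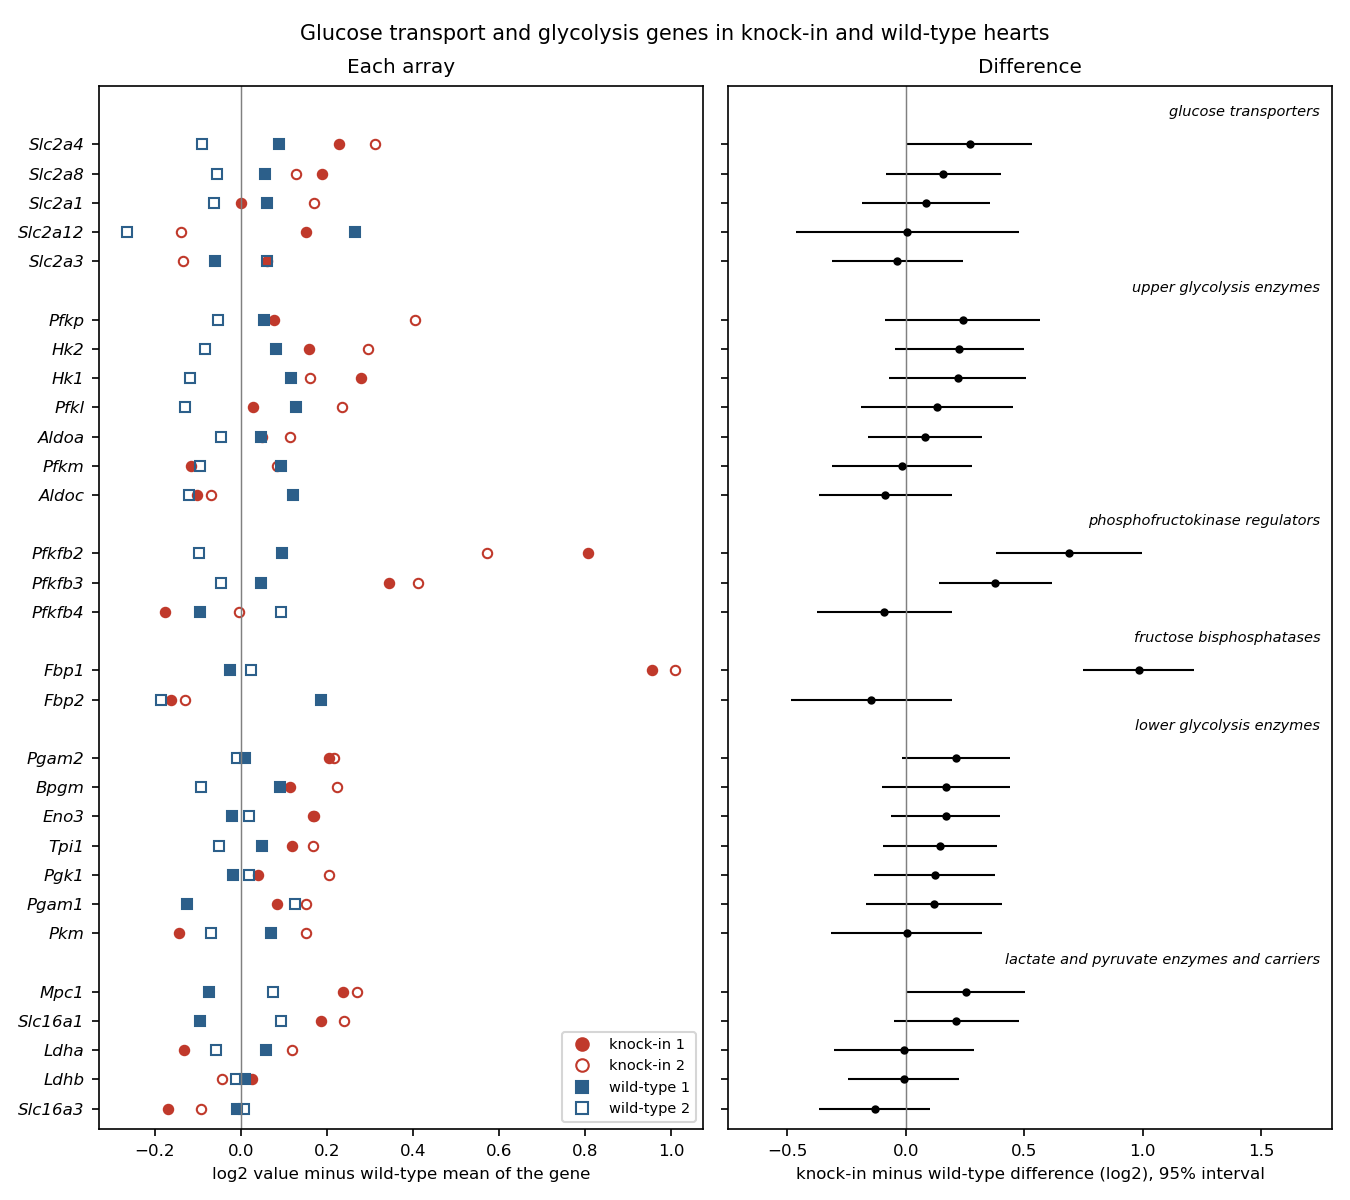
Each of the 29 members by role. Left, the log2 value of every array minus the gene's wild-type mean (circles knock-in, squares wild-type, filled for replicate 1, open for replicate 2). Right, the knock-in minus wild-type difference with limma's 95% interval. Fbp1, Pfkfb2 and Pfkfb3 stand apart at 0.98, 0.69 and 0.38, and the lower glycolysis enzymes all lie between 0.0039 and 0.21.

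**Figure D2:**
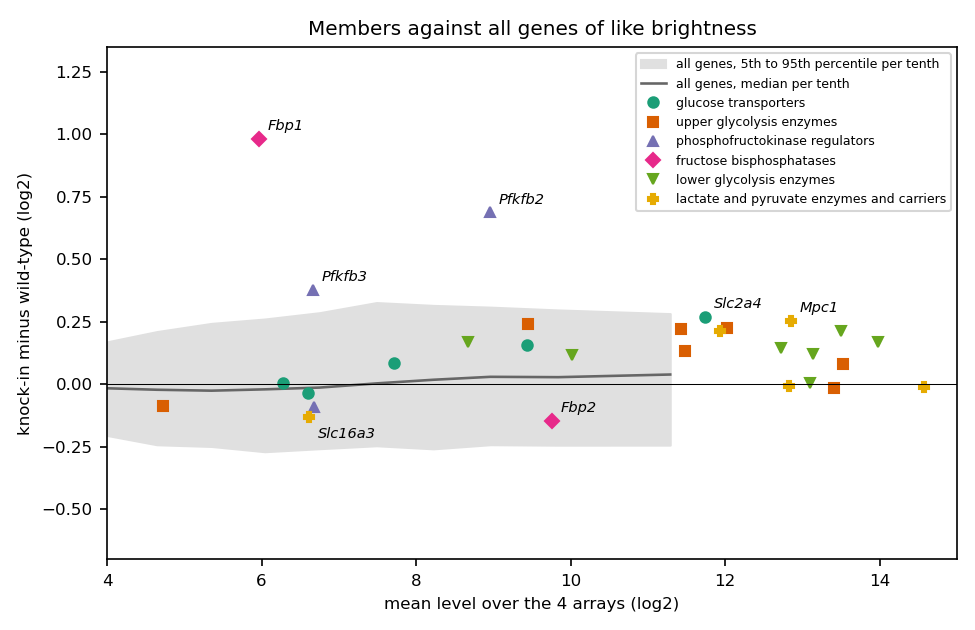
Knock-in minus wild-type difference (log2) against the mean level over the 4 arrays (log2) for the 29 members, by role. The grey band spans the 5th to 95th percentile of all genes within each of 10 bins of the level and the line their median, which is -0.0152 in the dimmest bin and 0.04 in the brightest. Band and line are drawn at the median level of the genes in each bin and end at that of the brightest bin, 11.3. Fbp1, Pfkfb2 and Pfkfb3 lie above the band.

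Pfkfb2 and Pfkfb3 encode bifunctional enzymes that make and remove fructose 2,6-bisphosphate, Pfkfb2 being known as the heart form. Pfkfb2 was at 9.42 and 9.18 in the knock-in arrays, against 8.71 and 8.51 in the wild-type arrays, so that the groups did not overlap. The difference was 0.69 (95% interval 0.382 to 0.998, adjusted p = 0.281 in limma). Its 4 probe sets differed in size. The second brightest read 8.12 and 8.44 in knock-in hearts, against 8.06 and 8.20 in wild-type hearts, a difference of 0.15. The third differed by 0.02. The dimmest differed by 0.80, with 4.63 and 5.98 in knock-in hearts and 4.43 and 4.56 in wild-type hearts, where knock-in 2 alone was far above the rest. Averaged over its probe sets, the difference of Pfkfb2 was 0.41.

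Pfkfb3, the form known for its high kinase activity, was at 6.83 and 6.89 in knock-in hearts, against 6.53 and 6.43 in wild-type hearts. These groups did not overlap either, with a difference of 0.38 (95% interval 0.14 to 0.62, adjusted p = 0.430 in limma). Its other probe set read 6.12 and 5.92 in knock-in hearts, against 6.03 and 5.81 in wild-type hearts, so the groups overlapped there and the difference was 0.10, with an average of 0.24 over both. Pfkfb4, another member of the family, was at 6.54 and 6.71 in knock-in hearts, against 6.62 and 6.81 in wild-type hearts, a difference of -0.09 with overlapping groups.

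Promoters of these genes are shown because 2 of the 3 family members lay apart by genotype and 1 did not. They are the 250 bases before an annotated start in RefSeq, build GRCm38.p6, each on the strand of its gene, at chr1:130715822-130716071 (minus strand) for Pfkfb2, chr2:11502091-11502340 (minus strand) for Pfkfb3 and chr9:108991652-108991901 (plus strand) for Pfkfb4. Capitals mark CACGTG, the E-box that clock and MYC-family factors can bind. It contains ACGTG, the core bound by HIF-1, on both strands.
Pfkfb2: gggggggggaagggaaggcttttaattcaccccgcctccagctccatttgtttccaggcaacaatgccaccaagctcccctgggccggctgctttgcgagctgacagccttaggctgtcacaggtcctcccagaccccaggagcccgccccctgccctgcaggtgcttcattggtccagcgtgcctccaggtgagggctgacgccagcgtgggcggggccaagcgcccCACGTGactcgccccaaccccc
Pfkfb3: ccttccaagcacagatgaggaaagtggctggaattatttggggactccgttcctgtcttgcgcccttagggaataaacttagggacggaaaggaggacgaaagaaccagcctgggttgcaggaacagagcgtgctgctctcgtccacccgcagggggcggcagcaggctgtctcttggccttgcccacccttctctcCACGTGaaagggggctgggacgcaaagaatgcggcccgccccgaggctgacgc
Pfkfb4: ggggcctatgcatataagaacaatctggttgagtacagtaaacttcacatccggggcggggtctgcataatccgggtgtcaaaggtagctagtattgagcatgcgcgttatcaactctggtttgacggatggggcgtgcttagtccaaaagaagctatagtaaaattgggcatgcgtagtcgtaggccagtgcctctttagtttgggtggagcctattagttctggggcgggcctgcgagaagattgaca
The E-box began 22 bases before this Pfkfb2 start (position -22) and 53 bases before this Pfkfb3 start (position -53), and neither CACGTG nor ACGTG was found in the Pfkfb4 window. RefSeq listed 3 starts for Pfkfb2 and 2 for Pfkfb3, and for each gene the window that held CACGTG is the one shown. The window of Fbp1, the member with the largest difference, held neither CACGTG nor ACGTG. Of the other windows of Pfkfb2 and Pfkfb3, 1 of each gene held ACGTG without the E-box. Over 32851 mouse promoter windows of the same length, 6.02% held CACGTG and 16.6% held ACGTG on either strand. Of the 50 windows found for 32 of the 34 listed genes, 6 held CACGTG, those of Fbp2, Ldha, Pfkfb2, Pfkfb3, Pfkm and Slc16a1, and 17 held ACGTG. Of these 6 genes, 3 (Pfkfb2, Pfkfb3 and Slc16a1) had both knock-in arrays on top, beside 16 of the 29 members and 19.6% of all genes, and the arrays of Fbp2, Ldha and Pfkm overlapped.

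Fbp1 and Fbp2 encode fructose bisphosphatase, which reverses the phosphofructokinase step, Fbp1 being known as the liver form and Fbp2 as the muscle form. Fbp1 was at 6.43 and 6.48 in knock-in hearts, against 5.45 and 5.50 in wild-type hearts, so that arrays of a genotype agreed within 0.06 and the groups lay far apart. The difference was 0.98 (95% interval 0.75 to 1.22, adjusted p = 0.0771 in limma). Its adjusted p in limma was 0.679 with the replicate block and 0.171 with all probe sets adjusted together. Fbp1 passed with each array centred (0.0341), with a trend on intensity and a robust prior (0.0402) and after quantile normalization (0.0304). It also passed with averaged probe sets (0.0256), but Fbp1 has 1 probe set, so only the values of other genes changed there. With 1 array left out its adjusted p in limma ran from 0.222 to 0.628. Fbp2 was at 9.67 and 9.70 in knock-in hearts, against 10.01 and 9.64 in wild-type hearts, a difference of -0.15 in which wild-type 1 alone stood above the rest.

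The measured liver markers moved with genotype in the same arrays. Liver genes of sugar metabolism outside that list, G6pc, Pck1, Slc2a2 and Pklr, differed by 0.16, 0.09, 0.07 and -0.06. Of these only G6pc had groups that did not overlap, and all lay below the median level of all genes. All 7 measured liver markers, of 8 listed, had both knock-in arrays above both wild-type arrays, with differences from 0.73 for Ahsg to 2.84 for Alb, a median of 1.20, an unadjusted limma p under 0.05 in all 7 and none called. Their summed linear level was 1376 and 2388 in the knock-in arrays, against 712 and 476 in the wild-type arrays. All 7 were brighter in knock-in 2 than in knock-in 1, Alb at 9.66 against 8.58, and Fbp1 was at 6.48 against 6.43. Adipoq, an adipocyte marker, was at 6.47 and 6.54 in knock-in hearts, against 5.11 and 5.65 in wild-type hearts. Of the other measured adipocyte markers, Retn, Lep and Cidec differed by 0.0073, 0.03 and -0.08. Summed over these 4, the linear level was 250 and 264 in knock-in hearts, against 207 and 210 in wild-type hearts. The part of either tissue in the Fbp1 value was not tested. RMA gives dim probe sets a value, so no marker was at 0.

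**Figure D3:**
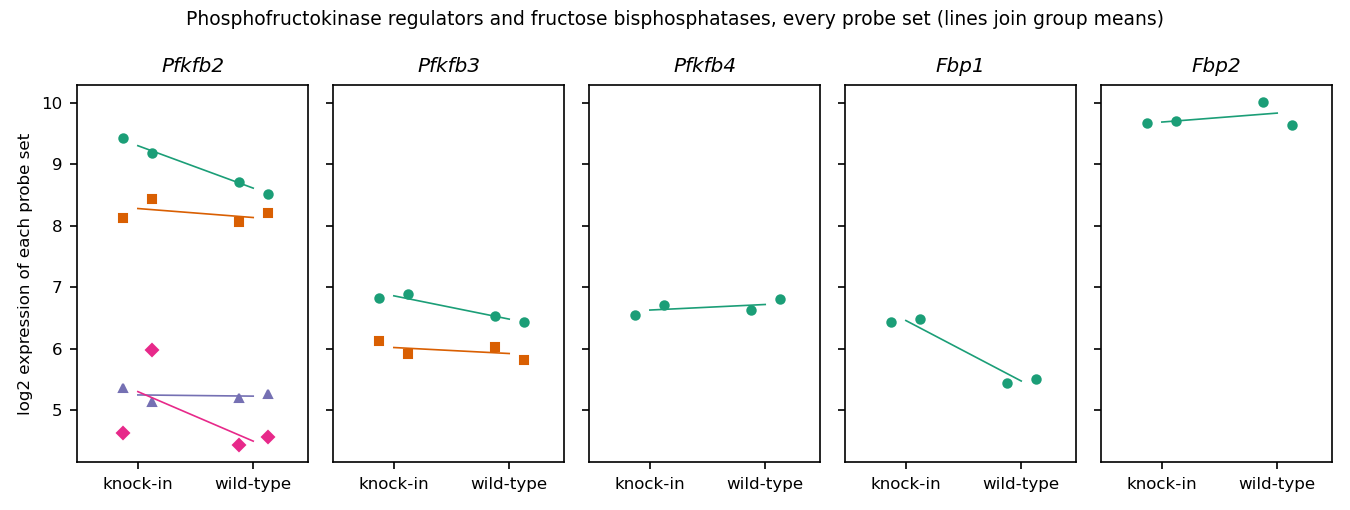
Log2 expression of every probe set of Pfkfb2, Pfkfb3, Pfkfb4, Fbp1 and Fbp2 in knock-in (left) and wild-type (right) hearts, with replicate 1 left of replicate 2. Each colour and symbol is 1 probe set and lines join group means. The difference of Pfkfb2 runs from 0.02 to 0.80 over its 4 probe sets, and Fbp1, with 1 probe set, is at 6.43 and 6.48 against 5.45 and 5.50.

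**Figure D4:**
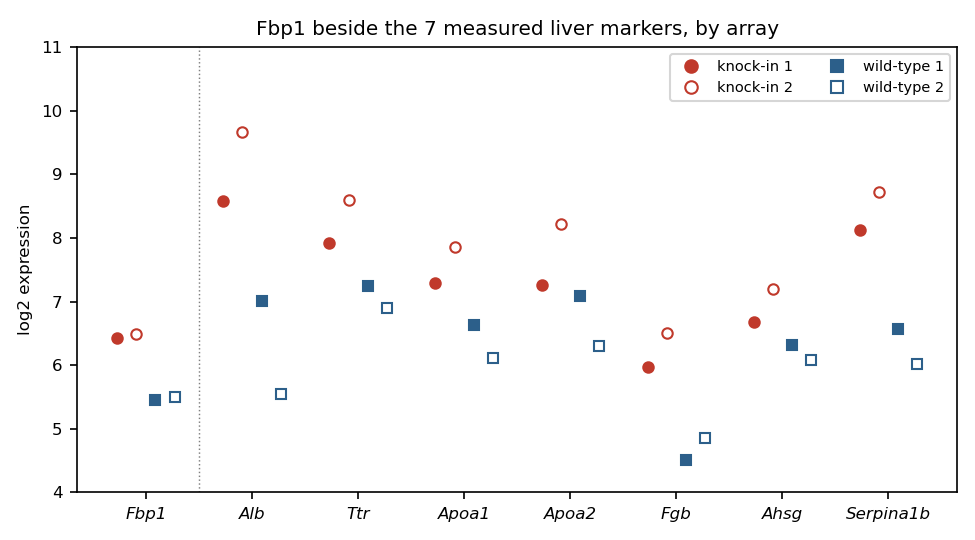
Log2 expression of Fbp1 and of 7 liver markers in each array (circles knock-in, squares wild-type, filled for replicate 1, open for replicate 2). All 7 markers are brighter in knock-in 2 than in knock-in 1, and Fbp1 is at 6.48 in knock-in 2 and 6.43 in knock-in 1.

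Of the 5 glucose transporters, Slc2a4, which encodes the insulin-responsive GLUT4, had the smallest p. It was at 11.84 and 11.92 in knock-in hearts, against 11.70 and 11.52 in wild-type hearts, without overlap and with a difference of 0.27 (1.21-fold, 95% interval 0.0056 to 0.53, adjusted p = 0.662 in limma). Its second probe set read 10.60 and 11.06 in knock-in hearts, against 11.13 and 10.54 in wild-type hearts, a difference of -0.0055 in which the genotypes were interleaved, and the average of both was 0.13. Slc2a8, an intracellular transporter, differed by 0.16, again without overlap. Slc2a1, which encodes the basal transporter GLUT1, differed by 0.09 with overlapping arrays. Its dimmer probe sets differed by 0.28 and 0.41, and in both every knock-in value was above every wild-type value. The neuronal-type transporter Slc2a3 differed by -0.04 and the GLUT12 gene Slc2a12 by 0.0061, with overlap in both. The median of the 5 was 0.09, and leaving out wild-type 2 gave 0.024, knock-in 2 0.15 and wild-type 1 0.21.

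Upper glycolysis was represented by 7 genes with a median difference of 0.13, which became 0.036 with wild-type 2 left out, 0.050 with knock-in 2 left out and 0.26 with wild-type 1 left out. Hk2, the insulin-regulated muscle hexokinase, was at 12.07 and 12.21 in knock-in hearts, against 12.00 and 11.83 in wild-type hearts, a difference of 0.23 without overlap (95% interval -0.04 to 0.50, adjusted p = 0.725 in limma). Hk1, the more widely expressed hexokinase, differed by 0.22 without overlap on its brightest probe set. Its other probe set read 9.32 and 9.82 in knock-in hearts, against 9.81 and 9.40 in wild-type hearts, a difference of -0.03, and the average of both was 0.09. Of the phosphofructokinase subunits, the platelet-type Pfkp differed by 0.24, the liver-type Pfkl by 0.13 and the muscle-type Pfkm by -0.0157. Only Pfkp of these 3 had groups that did not overlap. Its other probe sets differed by -0.07 and -0.05, the average over its probe sets was 0.043, and leaving out knock-in 2 gave 0.078 and knock-in 1 0.40. For Pfkl the value was 0.0028 with wild-type 2 left out, 0.028 with knock-in 2 left out, 0.24 with knock-in 1 left out and 0.26 with wild-type 1 left out. Pfkm was at 13.30 and 13.50 in knock-in hearts, against 13.51 and 13.32 in wild-type hearts, an interval of -0.31 to 0.28 for the difference. Aldoa, the muscle aldolase, was at 13.53 and 13.60 in knock-in hearts, against 13.53 and 13.44 in wild-type hearts, with differences from 0.07 to 0.18 over its 5 probe sets. Aldoc, the brain-type aldolase, differed by -0.09.

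In lower glycolysis all 7 members of the test had a difference above 0, where 50.2% of all genes and 63.0% of the 1820 brightest did, and the median was 0.14. Pgam2, the muscle phosphoglycerate mutase, was at 13.60 and 13.61 in knock-in hearts, against 13.40 and 13.38 in wild-type hearts, with arrays of a genotype within 0.02 of each other. Its difference was 0.21 (95% interval -0.0170 to 0.44, adjusted p = 0.697 in limma). Eno3, the muscle enolase, was at 14.07 and 14.06 in knock-in hearts, against 13.88 and 13.92 in wild-type hearts, a difference of 0.17 (95% interval -0.06 to 0.40, adjusted p = 0.759 in limma). For both genes the replicates lay closer together than the groups, but neither was called.

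Tpi1, the triose phosphate isomerase gene, differed by 0.14 and Pgk1, which encodes phosphoglycerate kinase, by 0.12, both without overlap. Other probe sets of Tpi1 differed by 0.14 and 0.39 and those of Pgk1 by 0.06 and 0.0032. Bpgm, whose product makes 2,3-bisphosphoglycerate and is abundant in red cells, differed by 0.17 without overlap, and its other probe sets by 0.17 and 0.41. The 5 measured erythrocyte markers summed to 546 and 731 on the linear scale in knock-in hearts, against 639 and 473 in wild-type hearts, and none of them lay apart by genotype. Pgam1, the widely expressed mutase, differed by 0.12 and Pkm, the pyruvate kinase gene, by 0.0039, both with overlap. Pkm was at 12.95 and 13.24 in knock-in hearts, against 13.16 and 13.02 in wild-type hearts.

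Gapdh, which encodes glyceraldehyde-3-phosphate dehydrogenase, was read by 3 Affymetrix control probe sets. The one at the 3' end gave 14.15 and 14.22 in knock-in hearts, against 14.08 and 14.10 in wild-type hearts, a difference of 0.10. The middle and 5' probe sets differed by 0.08 and 0.06. These were not tested. The 3' minus 5' difference, a measure of RNA integrity, was 0.77 and 0.54 in the knock-in arrays and 0.64 and 0.60 in the wild-type arrays, so the knock-in values enclosed the wild-type ones. The same measure for Actb was 0.37 and 0.28 in the knock-in arrays, both below the 0.45 and 0.39 of the wild-type arrays. The part of RNA integrity in the members' values was not tested. Skeletal muscle, in which Pgam2, Eno3 and Fbp2 are abundant, was looked for with 9 markers. Of these Acta1, also a fetal heart gene, was at 12.93 and 13.74 in knock-in hearts, against 12.40 and 12.21 in wild-type hearts, and Myh1, Myh2, Myh4, Actn3, Tnnt3 and Tnni2 differed by -0.10 to 0.10. Mylpf differed by -0.28 and Ckm, which heart also expresses, by 0.02. Their summed linear level was 24679 and 32944 in knock-in hearts, against 23591 and 22306 in wild-type hearts. Most of this sum came from Acta1 and from Ckm, which was at 14.01 and 14.21 in knock-in hearts, against 14.11 and 14.07 in wild-type hearts. The part of skeletal muscle in the members' values was not tested.

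At the pyruvate branch point the estimated difference was larger for the mitochondrial carrier than for the lactate dehydrogenases. Their 95% intervals overlapped, and the contrast between them was not tested. Mpc1, a subunit of the mitochondrial pyruvate carrier, was at 12.97 and 13.00 in knock-in hearts, against 12.65 and 12.80 in wild-type hearts, a difference of 0.25 without overlap (1.19-fold, 95% interval 0.0040 to 0.50, adjusted p = 0.667 in limma). Slc16a1, which encodes the monocarboxylate transporter MCT1, was at 12.01 and 12.07 in knock-in hearts, against 11.73 and 11.92 in wild-type hearts, a difference of 0.21 without overlap and of 0.13 with its probe sets averaged. Slc16a3, which encodes the lactate exporter MCT4, was the one member lower without overlap, at 6.51 and 6.59 in knock-in hearts, against 6.68 and 6.69 in wild-type hearts, a difference of -0.13. Ldhb, the heart-type lactate dehydrogenase, was at 14.60 and 14.53 in knock-in hearts, against 14.59 and 14.57 in wild-type hearts, a difference of -0.0092 (95% interval -0.24 to 0.22). Ldha, the muscle-type form, was at 12.70 and 12.95 in knock-in hearts, against 12.89 and 12.78 in wild-type hearts, a difference of -0.0064 (95% interval -0.30 to 0.29). Both intervals span 0, and a modest difference either way within them was not excluded by these arrays.

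Of the 16 members with more than 1 probe set, 10 had differences of the same sign in all of them, 9 above 0 and 1, Slc2a3, below 0. In the other 6, namely Aldoc, Hk1, Ldhb, Pfkl, Pfkp and Slc2a4, the signs differed. Over all 60 probe sets 44 differences were above 0 and 16 below. In the fit of all probe sets 5 of the 60 had an unadjusted limma p under 0.05, against 5.84% of all 45037 probe sets, the brightest ones of Fbp1, Pfkfb2 and Pfkfb3 and the dimmest ones of Tpi1 and Bpgm, and none was called.

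Neighbouring genes of sugar metabolism showed no common direction. Of 72 listed, 65 were measured, with 35 differences above 0, 30 below 0 and a median of 0.0059. None was called in limma. At an unadjusted limma p under 0.05, 5 were higher and 2 lower, against 4.40% and 2.99% of all genes. Hif1a, which encodes the oxygen-regulated subunit of HIF-1, an activator of glycolytic genes, was at 10.23 and 10.42 in knock-in hearts, against 9.62 and 9.87 in wild-type hearts, a difference of 0.58 (1.495-fold, 95% interval 0.27 to 0.89, adjusted p = 0.354 in limma). Its list of 12 transcriptional regulators had 3 differences above 0 and 9 below. In 5 of the 12 both knock-in arrays lay below both wild-type arrays, against 17.0% of all genes. In 2 of them both lay above, against 19.6% of all genes. Txnip, which encodes an inhibitor of glucose uptake that rises with glucose, was at 12.52 and 12.23 in knock-in hearts, against 11.76 and 12.13 in wild-type hearts, a difference of 0.43. Tbc1d4, which encodes the Akt substrate AS160 that restrains GLUT4 traffic, was at 9.79 and 9.95 in knock-in hearts, against 10.12 and 10.33 in wild-type hearts, a difference of -0.36. These 3 genes had groups that did not overlap. With probe sets averaged Hif1a differed by 0.37, and with wild-type 1 left out Txnip differed by 0.24.

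Among 19 other enzymes of glycolysis and gluconeogenesis, the ADP-dependent glucokinase Adpgk differed by -0.28 and the enolase-related Eno4 by 0.26. Gnpnat1, an enzyme of the hexosamine pathway, differed by 0.33, and the other 13 measured genes of the pentose phosphate, hexosamine and polyol branches had unadjusted limma p-values above 0.05. Gpd2, the mitochondrial glycerol phosphate dehydrogenase of the shuttle that carries glycolytic reducing power, differed by 0.30. With probe sets averaged these values were -0.10 for Adpgk, 0.053 for Eno4, 0.16 for Gnpnat1 and 0.12 for Gpd2, and leaving out wild-type 1 gave 0.18 for both Gnpnat1 and Gpd2. The malate and aspartate shuttle enzymes Mdh1, Mdh2, Got1 and Got2 differed by -0.03 to 0.0059.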

How the data were processed

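Deposited values were log2 expression per probe set, which the authors made with RMA in Affymetrix Expression Console, per the submitters' processing notes. The titles name the wild-type arrays as controls for beta and do not say which arrays were normalized together. Of 45101 probe sets, 64 were controls, 34945 had 1 gene symbol in the platform annotation, 932 several and 9160 none. Symbols were updated through Entrez identifiers (34741 found in the RefSeq table of GRCm38.p6). One probe set a gene, that of the highest mean, gave 18193 genes, fitted by limma 3.58.1 (lmFit, then eBayes; R 4.3.3) with two-sided tests and p-values adjusted over those genes by Benjamini-Hochberg. No dim probe sets were removed. Array medians ran from 5.97 to 6.04, and the number of arrays limits the precision. The test was tried on simulated data. Members, lists and the rule for named genes (members with an unadjusted p under 0.05 or a difference of at least 0.4, and the brightest and that of smallest p in each role, get array values) were chosen with earlier results of these data known. Array values of further members, of Gapdh, and further pathway and marker genes were added after their values were seen. Alternatives were a replicate block, a trend with robust prior, centring, quantile normalization, genes above the median, averaged probe sets, all probe sets adjusted together and each array left out. The comparison with the 1820 brightest genes was chosen after seeing the data.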

Additional observations from a re-analysis of the deposited data

How the results depend on the processing

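The number of genes called, 1 in the fit reported, was 0 with the replicate block, 22 with the trend and robust prior, 11 with arrays centred, 11 after quantile normalization, 7 among genes above the median, 11 with averaged probe sets, 0 with all probe sets adjusted together and 0 without any 1 array. Of members, 1 was called with the trend and robust prior, with arrays centred, after quantile normalization and with averaged probe sets, in each case Fbp1, and 0 in the other fits. The 5 members at an unadjusted limma p under 0.05 became 3 with the replicate block, 9 with the trend and robust prior, 3 after quantile normalization, 3 with all probe sets adjusted together and 2 to 6 with 1 array left out (2 without knock-in 2). Same-numbered arrays did not deviate together over all genes (r = -0.031 across 18193 genes, which are not independent). Among the 9096 genes above the median r was -0.15, with knock-in 2 tending to the side of wild-type 1. The replicate number was taken only to name an array. The cause of the changes between fits was not tested.

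Medians by role moved as follows. Among genes above the median, where fewer members remain, they were 0.16 for transporters, 0.69 for phosphofructokinase regulators, -0.15 for fructose bisphosphatases and 0.10 for lactate and pyruvate genes. With averaged probe sets the regulators were at 0.24. Leaving out 1 array gave 0.024 (without wild-type 2) to 0.21 (without wild-type 1) for transporters, 0.036 (without wild-type 2) to 0.26 (without wild-type 1) for upper glycolysis, 0.33 to 0.42 for the regulators, 0.34 to 0.50 for the bisphosphatases, 0.11 to 0.17 for lower glycolysis and -0.020 to 0.12 (without knock-in 1) for lactate and pyruvate genes. Some small differences changed sign. With arrays centred they were 0.0019 for Slc2a3, 0.023 for Pfkm, 0.032 for Ldha and 0.030 for Ldhb. With averaged probe sets they were 0.025 for Aldoc and 0.031 for Ldhb, and after quantile normalization -0.025 for Pkm. With 1 array left out they ran from -0.00020 to 0.17 for Slc2a1, -0.13 to 0.061 for Slc2a3, -0.26 to 0.27 for Slc2a12, -0.12 to 0.085 for Pfkm, -0.21 to 0.035 for Aldoc, -0.18 to 0.0040 for Pfkfb4, -0.33 to 0.040 for Fbp2, -0.0064 to 0.24 for Pgam1, -0.14 to 0.15 for Pkm, -0.13 to 0.12 for Ldha and -0.044 to 0.026 for Ldhb. Where 1 array was left, limma lent it the spread of the other genotype. No other difference of a member changed sign in these alternatives, in which Fbp1, below the level needed for the fit above the median, ran from 0.96 to 1.02 and Pfkfb2 from 0.41 to 0.81.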

Other observations

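Several glycolytic transcripts differed more between the 2 arrays of a genotype than between the genotype means. Pfkm, Pkm and Ldha had the same pair of arrays on top: for Ldha knock-in 2 at 12.95 and wild-type 1 at 12.89, above knock-in 1 at 12.70 and wild-type 2 at 12.78. For Pkm knock-in 2 was at 13.24 and wild-type 1 at 13.16, above knock-in 1 at 12.95 and wild-type 2 at 13.02. The second probe sets of Slc2a4, Hk1, Pfkl, Pfkp and Bpgm had that pair on top too, as did the brightest of Pfkl and Slc2a1. The second of Slc2a4 was at 11.06 in knock-in 2 and 11.13 in wild-type 1, against 10.60 in knock-in 1 and 10.54 in wild-type 2. These examples were picked after their values were seen, and the share of all genes with that pair on top was not counted. Bright genes in general leaned this way, with r = -0.15 between deviations of same-numbered arrays over the 9096 genes above the median.

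Probe sets that the annotation shares between several genes were outside the test. The brightest of them for Gapdh, shared by 5 symbols, was at 14.77 and 14.83 in knock-in hearts, against 14.74 and 14.73 in wild-type hearts, a difference of 0.06. One shared by Gapdh and a pseudogene was at 8.68 and 8.68 in knock-in hearts, against 8.40 and 8.32 in wild-type hearts, a difference of 0.32. The other one shared by these 2 symbols was at 8.60 and 8.31 in knock-in hearts, against 8.09 and 8.54 in wild-type hearts, a difference of 0.14 with overlapping groups.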
